A study of Saccharomyces cerevisiae with 16 samples.

Results

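Stress-induced genes of Saccharomyces cerevisiae that encode no chaperone were followed through a phosphate starvation time course. The group holds 32 of the 6648 named genes of the deposited table. It was put together by gene name as genes of the type that the transcription factors Msn2 and Msn4 induce, leaving out chaperones and some other stress genes. The rule reads names and no measured value, although results of this time course were known when the list was made. Of the 32 genes, 30 had a value in at least 1 library, and MGA1 and RGS2 had one in none. RNA was sequenced in 16 libraries, 1 per time point. All 16 are labelled as 1 strain in the BY4741 background that carries a YFP reporter under the PHO84 promoter and a deletion of PHM4, a subunit gene of the complex that makes polyphosphate, the phosphate store of the vacuole. The 0 min library came from cells in high phosphate medium, and the other 15 from cells washed into medium without phosphate and sampled every 15 min up to 225 min. No strain with PHM4 was analysed here, so the values describe a time course and not the deletion. With 1 library per time point no spread between cultures can be given, and p-values below measure the spread between libraries of successive times.

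Yeast cells meet heat, oxidants, osmotic shock or the loss of a nutrient with a common program, the environmental or general stress response. Msn2 and Msn4 stay in the cytoplasm while protein kinase A is active, and enter the nucleus when its activity drops, where they bind the stress response element (STRE), the sequence AGGGG, upstream of their targets. The targets encode chaperones, enzymes of trehalose and glycogen, antioxidants, and the mixed set followed here: enzymes of sugar phosphates, of the GABA shunt and of carbonyl detoxification, mitochondrial and plasma membrane proteins, and small proteins of little-known function. Genes for making ribosomes form the opposite arm of the program and fall when stress genes rise.

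The deposited values are on the log2 CPM scale, CPM being reads per 1000000 reads of a library. Depth recovered from the lowest values was 603426 to 3437873 reads in 14 libraries, and 40984 and 45009 reads in the libraries labelled 195 and 210 min, which list 1122 and 1188 genes only. These 2 libraries were left out of the tests, and 16 and 14 of the 30 stress genes have a value there. The lowest values they list, their floors, were 7.93 and 7.80 log2 CPM. They also stand apart in VTC1, the standard name of PHM4, which the label calls deleted: it was listed in every library, at 6.67 to 7.51 log2 CPM in the deeper libraries and at 10.80 and 10.90 in these 2. The values therefore do not show the labelled deletion, and which part of the gene was removed is not given in the labels. VTC1 is not the only gene that differs in these 2 libraries. The ribosome biogenesis gene NOP58 read 11.04 and 11.10 log2 CPM there, against 8.53 at 180 min and 8.84 at 225 min. CBF5, another, read 10.67 and 10.72, against 8.79 and 8.89. PHO84, the high-affinity phosphate transporter, had its lowest value, 5.80 log2 CPM, at 0 min and reached 10.89. The 6 MATa-specific genes checked, such as STE2, were listed in all 14 deeper libraries and summed to 2146 to 7016 CPM, while the 6 MATalpha-specific genes summed to 24.8 to 72.4 CPM with 3 of them listed in none. Of the auxotrophy genes that BY4741 lacks, LEU2 and MET17 were listed in none, HIS3 in the 0 min library at 1.92 log2 CPM, and URA3 in 3 deeper libraries at 2.22 to 3.97 log2 CPM.

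The STRE was looked for in the 300 bases before each start codon in build R64. AGGGG, on either strand, stood before 25 of the 32 genes (78.1%), against 22.2% of 6007 promoters of the genome cut in the same way. Of the 32 genes 12 (37.5%) had at least 2 matches, against 3.48% of all promoters. The genes were gathered as Msn2 and Msn4 targets, so this is a description of the list and no independent result. TMA10, GRE2, DAK1, UGA1, UGA2, RGS2 and YGP1 had no match in this window. The related post-diauxic shift element AGGGAT, which Gis1 binds, stood before 10 of the 32 (31.2%; all promoters 9.24%), and the Pho4 site CACGTG before 0 (all promoters 3.56%). TTCNNGAA, the inverted pair of the heat shock element, stood before SDP1 and OM45 (6.25%; all promoters 13.1%). AGGGG and AGGGAT share 4 letters but cannot be the same match. The stretches with the most AGGGG matches are shown because each carries 3 copies of the element. Each runs 5′ to 3′ on the gene's strand from 300 to 151 bases before the start codon, AGGGG or its reverse complement CCCCT is in capitals, and the sequence is RefSeq's for R64. RGI1 is read from chrV:291766-291915 (plus strand), PNC1 from chrVII:428098-428247 (minus strand), DDR2 from chrXV:231906-232055 (minus strand) and LSP1 from chrXVI:551808-551957 (minus strand).
RGI1: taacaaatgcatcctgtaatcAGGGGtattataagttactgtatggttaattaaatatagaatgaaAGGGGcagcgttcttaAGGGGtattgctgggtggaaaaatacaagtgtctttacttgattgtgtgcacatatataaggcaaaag
PNC1: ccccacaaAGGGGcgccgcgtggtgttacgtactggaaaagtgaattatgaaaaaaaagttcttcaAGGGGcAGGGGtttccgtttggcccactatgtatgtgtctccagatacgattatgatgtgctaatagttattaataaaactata
DDR2: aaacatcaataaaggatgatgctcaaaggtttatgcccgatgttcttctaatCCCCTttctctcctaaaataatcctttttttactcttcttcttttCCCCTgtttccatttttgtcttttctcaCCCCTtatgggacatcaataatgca
LSP1: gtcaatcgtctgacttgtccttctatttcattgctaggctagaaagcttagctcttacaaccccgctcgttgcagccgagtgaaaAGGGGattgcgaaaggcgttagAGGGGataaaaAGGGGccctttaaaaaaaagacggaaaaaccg
The first base of the matches lay 279, 234 and 218 bases before the start codon in RGI1, 292, 234 and 228 in PNC1, 248, 203 and 175 in DDR2, and 215, 193 and 182 in LSP1. All 3 matches of DDR2 are written CCCCT, and those of the other 3 genes are written AGGGG. PIL1 also had 3 matches. The median log2 ratio to 0 min over the first hour was 1.98 for 6 genes with no match, 2.50 for 10 with 1, 2.89 for 7 with 2 and 2.78 for 5 with 3, and the genes with 3 spanned nearly the whole range, from 0.49 in PIL1 to 3.85 in RGI1.

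The stress genes came up in 2 waves with a dip between them. Their summed share of all listed reads was 0.187% at 0 min, climbed to 0.951% at 60 min, dropped to 0.310% at 105 min and stood at 1.54% at 150 min and 1.53% at 225 min. The median gene with a 0 min value was 3.27 (log2) above 0 min at 60 min, 1.35 above it at 105 min, 3.91 above it at 150 min and 3.73 above it at 225 min. Among the 29 genes with a value in at least 13 deeper libraries, the first peak fell at 30 min in 3, at 45 min in 11 and at 60 min in 15. The lowest point after it fell at 105 min in 21, at 90 min in 5, at 120 min in GRE2 and GRE3, and at 135 min in DAK1. The dip did not return most of the genes to their level in high phosphate: in 26 of 28 it stayed above the 0 min value, in 17 of them at least 2-fold. GRE2 and YGP1 were the exceptions, at -0.12 and -0.17 (log2) against 0 min. The share of all genes that stayed above 0 min was not counted. The median of 4495 genes was itself 0.22 to 0.33 above 0 min from 90 to 135 min. PIL1, at 0.03 in its dip, lay under that. In bulk RNA, fewer cells that express a gene and less RNA of it per cell cannot be told apart.

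**Figure D1:**
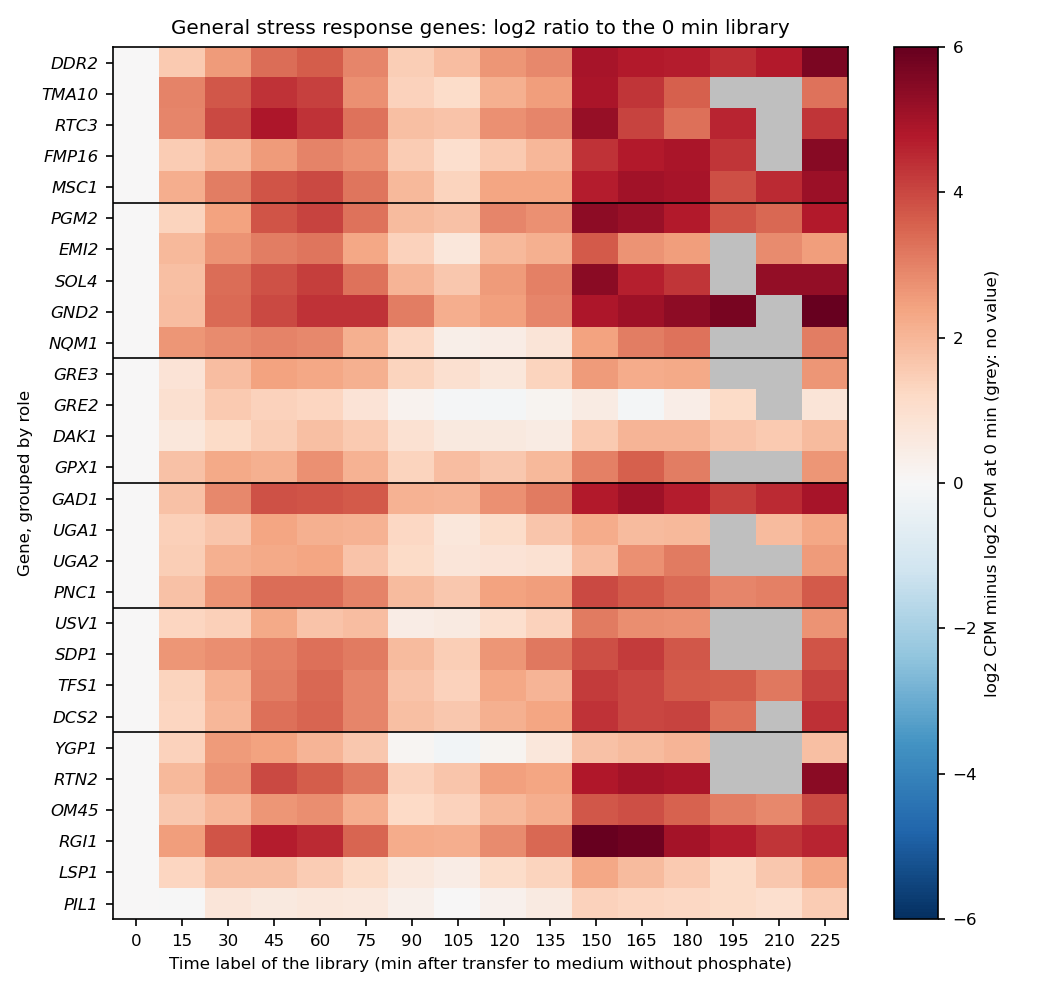
Log2 ratio to the 0 min library of each stress gene with a 0 min value (rows, grouped by role) at each time in min (columns); grey marks a missing value. Most rows darken up to 45 or 60 min, pale at 90 to 120 min and darken again from 150 min, where the median is 3.91.

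Window means measured the waves against the spread between libraries. Libraries of 45 to 75 min, 90 to 120 min and 150 to 180 min, 3 each, were compared in limma over all genes with at least 2 values per window, with Benjamini-Hochberg adjustment, and a gene was called at an adjusted p under 0.05 and a difference of at least 0.5 (log2). The windows were set with the waves of these data known. From the first window to the second 26 of 29 stress genes fell and 0 rose, with a median difference of -1.36 against -0.09 over all 5125 genes tested, of which 8.84% fell. MOH1 (-0.75, adjusted p = 0.211), GPX1 (-0.72, adjusted p = 0.0656) and PIL1 (-0.44, adjusted p = 0.0623) were not called by limma. From the second window to the third 28 of 29 rose, with a median of 2.18 against 0.11 over all genes, of which 16.2% rose. GRE2 was the one not called, at 0.26 ± 0.21 (SE, limma adjusted p = 0.384). Without any 1 of the 9 libraries the first count ran from 22 to 27 and the second stayed at 28.

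The second wave began with a jump between neighbouring libraries. All 29 genes with enough values were higher at 150 than at 135 min, 23 of them at least 2-fold, where 3.86% of 5342 genes were. The median step was 1.67 (log2), against 0.01 over all genes, and the highest was 2.59 in PGM2. Both libraries are among the deeper ones, with 2124963 and 1897079 reads, and the median of 4495 genes listed in all deeper libraries differed little between them, at 0.02 and -0.04 (log2) from the mean of these libraries. After 150 min the genes took no common direction: 18 were higher at 225 than at 150 min and 11 lower. The share of all genes that rose was not counted. For the same 4495 genes the median lay at -0.04 (log2) from the mean at 150 min and at 0.11 at 225 min. Gains as small as those of LSP1 (0.01), YGP1 (0.02) and DCS2 (0.02) lie within that shift. MOH1 (1.14), FMP16 (1.13) and GND2 (1.09) had gained most on the log2 scale, apart from TKL2 with few values (1.93), and TMA10 (-1.65), RGI1 (-1.42), EMI2 (-1.16) and RTC3 (-0.94) had lost most. These steps rest on 1 library at each end and have no test.

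Small stress proteins and proteins of little-known function had a median log2 ratio to 0 min of 3.25 in the first hour and 4.87 late, over the 5 of 6 with a 0 min value. RTC3 (YHR087W, chrVIII:280820-281155), a small protein linked to RNA metabolism, stood at 4.37 log2 CPM at 0 min. It reached 7.30, 8.31, 9.21 and 8.68 at 15, 30, 45 and 60 min, dropped to 7.63, 6.16, 6.07, 7.10 and 7.30 from 75 to 135 min, and stood at 9.61, 8.42, 7.67 and 8.67 at 150, 165, 180 and 225 min. The library labelled 195 min gave 8.93. Every starved library with a value thus lay above the 0 min one, and the first hour mean was 4.01 ± 0.80 (log2, SD over 4 libraries) above it, a 16.1-fold ratio and the highest of the group. Between the third and the first window RTC3 differed by 0.05 ± 0.44 (SE, limma adjusted p = 0.955), and by -0.47 to 0.50 when 1 library was left out.

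TMA10 (YLR327C, chrXII:783127-783387), a ribosome-associated protein, went from 3.77 log2 CPM at 0 min to 6.73, 7.51, 8.09 and 7.85 in the first hour, to 6.50, 5.13, 4.88, 5.92 and 6.26 from 75 to 135 min, and to 8.66, 8.04, 7.34 and 7.01 at 150, 165, 180 and 225 min. Its fall into the dip, -2.17 ± 0.39 (SE, limma adjusted p = 0.00281), was the deepest of the group, and its values declined again from 150 min on. DDR2 (YOL052C-A, chrXV:231570-231755), a small protein induced by DNA damage and many other stresses, behaved otherwise. It started at 3.97 log2 CPM, stood at 5.56, 6.54, 7.32 and 7.60 in the first hour and at 6.92, 5.44, 5.81, 6.63 and 6.86 from 75 to 135 min. It then reached 8.92, 8.73, 8.71 and 9.63 at 150, 165, 180 and 225 min, with 8.42 and 8.72 in the libraries labelled 195 and 210 min. Its late values are all above its early ones, and the third window exceeded the first by 1.51 ± 0.26 (SE, limma adjusted p = 0.00986), a call lost without the 165 min library.

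FMP16 (YDR070C, chrIV:588098-588379), a mitochondrial protein of unknown function, had the largest late gain. It stood at 3.89 log2 CPM at 0 min, at 5.40, 5.86, 6.43 and 6.87 in the first hour and at 6.63, 5.40, 4.91, 5.47 and 5.87 from 75 to 135 min. It then read 8.21, 8.67, 8.81 and 9.34 at 150, 165, 180 and 225 min, and 8.19 in the library labelled 195 min. The rise from the dip was 3.30 ± 0.22 (SE, limma adjusted p = 3.70e-07), and the third window exceeded the first by 1.92 ± 0.22 (SE, limma adjusted p = 0.000388), a call kept without any 1 library. MSC1, first known for meiotic recombination between sister chromatids, fell by 1.77 into the dip and rose by 3.02 out of it.

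MOH1 (YBL049W, chrII:126828-127244), a member of the Yippee family, had no value at 0 min, where the floor of the library was 2.91 CPM. It was listed at 3.81, 4.31, 4.26 and 5.46 log2 CPM in the first hour, at 4.65, 3.81, 3.57, 4.75 and 4.27 from 75 to 135 min, and at 5.58, 6.67, 6.43 and 6.73 at 150, 165, 180 and 225 min. Against the floor of the 0 min library, taken as 10 reads, this is at least 15.2-fold higher at 60 min and at least 36.4-fold higher at 225 min. The rise out of the dip was 2.18 ± 0.38 (SE, limma adjusted p = 0.000553).

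Of the enzymes of sugar phosphates and of the pentose phosphate pathway, 5 of 5 tested fell into the dip and 5 of 5 rose out of it, beside 8.84% and 16.2% of all genes and nearly all of the other stress genes. From 150 to 225 min they parted, with EMI2 (-1.16) and PGM2 (-0.60) lower and GND2 (1.09) and TKL2 (1.93) higher on the log2 scale. GND2 (YGR256W, chrVII:1004624-1006102), the minor 6-phosphogluconate dehydrogenase, stood at 2.92 log2 CPM at 0 min and at 4.77, 6.31, 6.89 and 7.25 in the first hour. It read 7.24, 6.0, 5.11, 5.37 and 5.87 from 75 to 135 min and 7.78, 8.02, 8.30 and 8.87 at 150, 165, 180 and 225 min, with 8.61 in the library labelled 195 min. All starved libraries lay above the 0 min one, by 10.5-fold on average in the first hour and by 40.1-fold over the last 4 deeper libraries. PGM2, the major phosphoglucomutase, was lowest at 0 min at 4.74 log2 CPM and highest at 150 min at 10.10. It rose out of the dip by 2.91 ± 0.28 (SE, limma adjusted p = 5.07e-06) and exceeded its first wave by 1.40 ± 0.28 (adjusted p = 0.0165), a call lost without the 75 or the 165 min library.

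SOL4, a 6-phosphogluconolactonase, ran from 3.13 log2 CPM at 0 min to 8.54 at 150 min, and EMI2, a homologue of glucokinase, from 5.64 to 9.33. NQM1, a transaldolase, was high at once: 5.47 log2 CPM at 15 min against 2.80 at 0 min, near its first peak of 5.78 at 45 min. TKL2 (YBR117C, chrII:474392-476437), the minor transketolase, had no value at 0, 15, 105, 120 or 135 min. With 1 value in the second window it was left out of the window tests, which asked for 2 values in each window. Where listed in the first wave it read 4.31, 3.55, 4.19 and 3.26 log2 CPM at 30, 45, 60 and 75 min. It read 2.27 at 90 min, and 4.47, 4.81, 4.97 and 6.40 at 150, 165, 180 and 225 min. The value at 225 min is at least 29.1-fold above the floor of the 0 min library.

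Enzymes of carbonyl, peroxide and triose metabolism had the lowest first hour ratios of the 6 role groups, with a median of 1.57 (log2) against 2.63 for all stress genes with a 0 min value. GRE2 (YOL151W, chrXV:43694-44722), the NADPH-dependent methylglyoxal reductase, went from 6.79 log2 CPM at 0 min to 7.73, 8.36, 8.17 and 8.07 in the first hour and to 7.59, 7.0, 6.74, 6.67 and 6.94 from 75 to 135 min. It read only 7.30, 6.68, 7.19 and 7.57 at 150, 165, 180 and 225 min. The 7.93 in the library labelled 195 min is the lowest value that library lists. The late values of GRE2 in the deeper libraries overlap the 0 min value, and its first wave is its highest. GRE2 was the only one of 29 genes called lower between the first and the third window, at -0.88 ± 0.21 (SE, limma adjusted p = 0.0407). That call was lost without the 45, 60, 105, 165 or 180 min library and with libraries centred on their median gene (-0.90).

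DAK1 (YML070W, chrXIII:133475-135229), the dihydroxyacetone kinase, stood 2.42-fold above 0 min in the first hour and 3.68-fold late. It read 7.67 log2 CPM at 0 min, 8.34, 8.82, 9.16 and 9.46 in the first hour, 9.26, 8.60, 8.27, 8.27 and 8.15 from 75 to 135 min, and 9.22, 9.69, 9.72 and 9.56 at 150, 165, 180 and 225 min. The libraries labelled 195 and 210 min gave 9.36 and 9.23. The changes between windows passed the test, at -0.91 ± 0.18 into the dip (SE, limma adjusted p = 0.00392) and 1.16 ± 0.18 out of it (adjusted p = 0.000203). GRE3, an aldose reductase, ran from 5.59 log2 CPM at 0 min to 8.22 at 225 min. GPX1, a glutathione peroxidase, ran from 3.22 at 0 min to 6.81 at 165 min and rose out of the dip by 1.63 ± 0.26 (SE, limma adjusted p = 0.000241).

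Nearly all of the stress genes fell into the dip and rose out of it, beside 8.84% and 16.2% of all genes. So did all 3 enzymes of the GABA shunt, which turns glutamate into succinate through 4-aminobutyrate. GAD1 (YMR250W, chrXIII:770801-772558), glutamate decarboxylase and the first of them, stood at 4.25 log2 CPM at 0 min and at 6.01, 7.16, 8.07 and 8.02 in the first hour. It read 7.94, 6.36, 6.28, 6.97 and 7.35 from 75 to 135 min and 9.02, 9.32, 8.98 and 9.21 at 150, 165, 180 and 225 min, with 8.42 and 8.72 in the libraries labelled 195 and 210 min. Its late values are all above its early ones, and the rise out of the dip was 2.57 ± 0.19 (SE, limma adjusted p = 1.26e-06). UGA1, the 4-aminobutyrate transaminase, peaked at 45 min at 8.54 log2 CPM, against 6.16 at 0 min, and rose out of the dip by 1.03. UGA2, the succinate semialdehyde dehydrogenase, peaked at 180 min at 7.97, against 4.85 at 0 min, and rose out of the dip by 1.67. PNC1, the nicotinamidase that feeds NAD+ salvage and limits the sirtuin inhibitor nicotinamide, went from 7.05 log2 CPM at 0 min to 11.00 at 150 min. Per length PNC1 was the most abundant of the group at 60 and at 150 min, with 2068 and 3156 CPM per kb of coding sequence.

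Regulators and inhibitors in the group followed the same course where they were listed. USV1, a zinc finger transcription factor, rose out of the dip by 2.21 ± 0.27, SDP1, a phosphatase of the cell wall MAP kinase Slt2, by 1.93 ± 0.26, TFS1, an inhibitor of carboxypeptidase Y, by 2.18 ± 0.23, and DCS2, a relative of the decapping scavenger enzyme DCS1, by 2.29 ± 0.19 (log2 ± SE). The highest limma adjusted p of the 4 was 7.71e-05. SDP1 was also among the fast ones, at 5.99 log2 CPM at 15 min against 3.35 at 0 min. Its log2 ratio at 15 min, 2.64, was below those of TMA10 (2.96), RTC3 (2.94) and NQM1 (2.67). MGA1, related to heat shock transcription factors, and RGS2, a negative regulator of the glucose-sensing G protein Gpa2, had no value in any library.

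Membrane, organelle and cell surface proteins spanned the widest range in the first hour, from 0.49 (log2 ratio to 0 min, PIL1) to 3.85 (RGI1). RGI1 (YER067W, chrV:292066-292551), a protein needed for respiratory growth, stood at 3.50 log2 CPM at 0 min and at 5.99, 7.27, 8.19 and 7.96 in the first hour. It read 7.0, 5.72, 5.70, 6.35 and 6.96 from 75 to 135 min, 9.48, 9.33, 8.48 and 8.06 at 150, 165, 180 and 225 min, and 8.19 and 7.80 in the libraries labelled 195 and 210 min. The 7.80 is the lowest value that the library labelled 210 min lists. The late mean was 40.4-fold above 0 min, the highest of the group. RGI1 rose out of the dip by 3.17 ± 0.31 (SE, limma adjusted p = 5.86e-06). OM45 (YIL136W, chrIX:93619-94800), a protein of the mitochondrial outer membrane, went from 5.77 log2 CPM at 0 min to 7.40, 7.75, 8.41 and 8.55 in the first hour and to 7.94, 6.97, 7.15, 7.72 and 7.96 from 75 to 135 min. It then read 9.51, 9.63, 9.29 and 9.74 at 150, 165, 180 and 225 min, and 8.86 and 8.64 in the libraries labelled 195 and 210 min. RTN2, a reticulon that shapes the endoplasmic reticulum, ran from 2.54 log2 CPM at 0 min to 7.95 at 225 min. YGP1, a secreted glycoprotein of starved cells, peaked at 30 min at 6.88 and was back at 4.13 by 105 min, against 4.31 at 0 min.

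PIL1 and LSP1 are the core proteins of eisosomes, the furrows of the plasma membrane, and were already abundant in high phosphate. PIL1 (YGR086C, chrVII:649598-650617) read 9.42 log2 CPM at 0 min, 9.38, 10.15, 10.00 and 10.10 in the first hour, 10.06, 9.73, 9.45, 9.67 and 9.97 from 75 to 135 min, and 10.81, 10.71, 10.66 and 10.94 at 150, 165, 180 and 225 min. The libraries labelled 195 and 210 min gave 10.56 and 10.45. PIL1 lies on both sides of its 0 min value in the first hour and above it in every library from 150 min on. LSP1 (YPL004C, chrXVI:550632-551657) read 7.54 log2 CPM at 0 min, 8.82, 9.34, 9.37 and 9.06 in the first hour, 8.71, 8.19, 7.98, 8.66 and 8.88 from 75 to 135 min, and 9.87, 9.43, 9.10 and 9.87 at 150, 165, 180 and 225 min. The libraries labelled 195 and 210 min gave 8.70 and 9.17. Per length PIL1 led the group at 0 min, with 672 CPM per kb of coding sequence. At 225 min DDR2 (4253 CPM per kb), PNC1 (2639) and FMP16 (2304) stood above PIL1 (1922). LSP1 was below PIL1 at both times, at 181 and 915 CPM per kb.

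Set against the single 0 min library, nearly all of the genes were higher at both ends of the course. Over 15 to 60 min, 27 of 28 were at least 2-fold higher with the same sign in the 4 libraries, where 16.0% of 4615 genes were, and the median log2 ratio was 2.63 against 0.28 over all genes. PIL1 was below that fold at 0.49 ± 0.36 (SD over 4 libraries), and DAK1 (1.27), GRE2 (1.29) and LSP1 (1.61) came next. At the other end stood RTC3 (4.01), RGI1 (3.85), TMA10 (3.77) and GND2 (3.39). Over 150, 165, 180 and 225 min, 27 of 28 were at least 2-fold higher, where 24.9% of 4895 genes were, and the median was 3.83 against 0.39 over all genes. GRE2 was below that fold at 0.40 ± 0.37, while RGI1 (5.34 ± 0.68), GND2 (5.32 ± 0.47), RTN2 (5.04), DDR2 (5.02 ± 0.43) and PGM2 (5.01) stood highest. Both sets of ratios share the 0 min library, whose median gene lay 0.30 (log2) below the mean of the deeper libraries. Centring removed that shift and gave a late median of 3.47. With the libraries labelled 195 and 210 min added where they list a gene, the late median was 3.65 and the count again 27.

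For 10 of 29 genes the later wave exceeded the earlier one past the test, where 1.25% of all genes rose between these windows and 0.839% fell. They were FMP16 (1.92), DDR2 (1.51), PGM2 (1.40), RGI1 (1.38), RTN2 (1.33), MSC1 (1.25), OM45 (1.18), GAD1 (1.10), DCS2 (0.88) and PIL1 (0.68), and GRE2 alone fell. The median difference was 0.81 (log2) against 0.01 over all genes. The number that rose turned on single libraries: it was 1 without the 165 min library, 4 without that of 75 min, 6 without that of 180 min and 14 without that of 150 min. The share of all genes that rose moved with it, to 0.101%, 0.597%, 0.534% and 6.23%, and the share that fell ran from 0.0403% without the 165 min library to 5.45% without that of 150 min. FMP16 is the call that was kept in each of them.

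**Figure D2:**
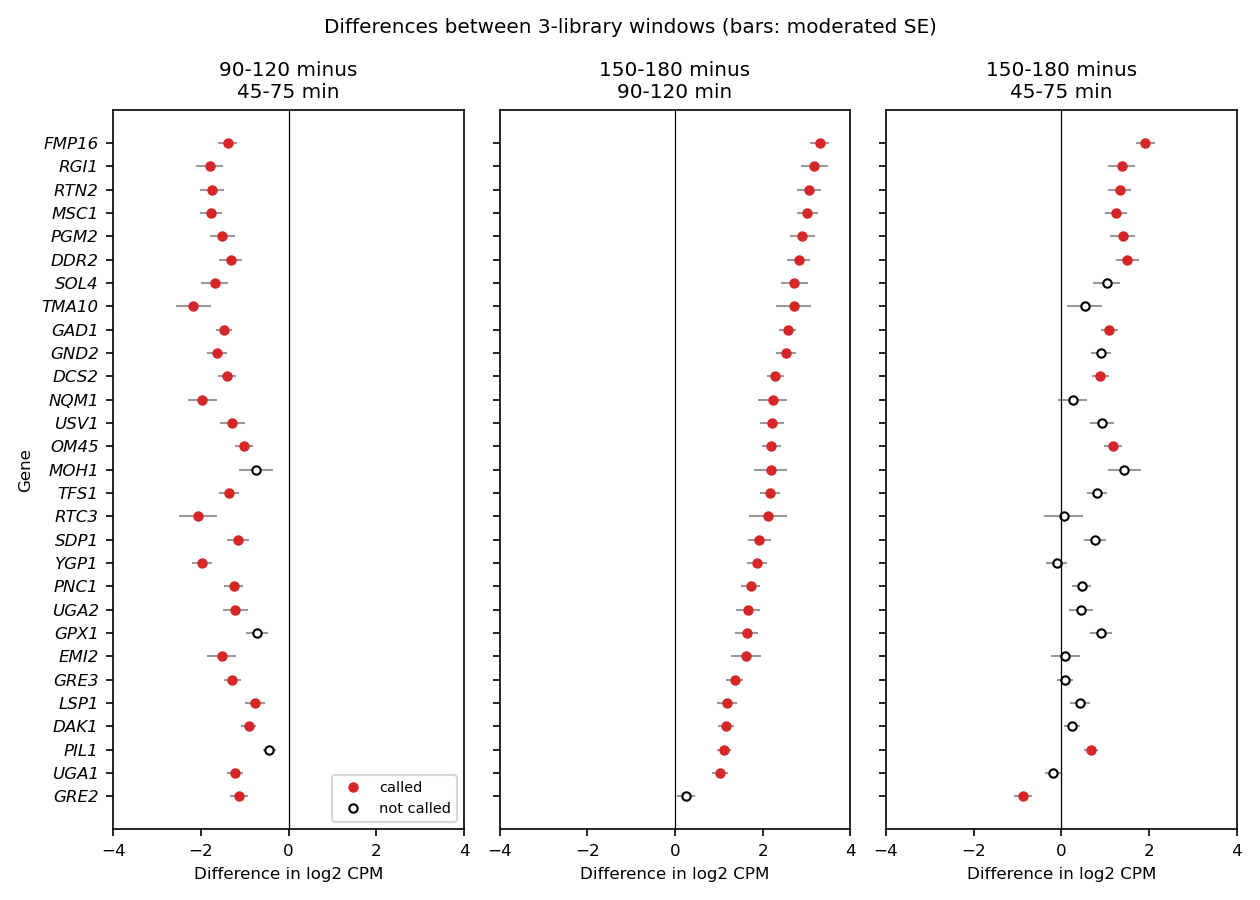
Difference between window means (log2, limma, bars showing the SE) for the 29 tested stress genes, in 3 panels: 90 to 120 against 45 to 75 min, 150 to 180 against 90 to 120 min, and 150 to 180 against 45 to 75 min. In the first panel all genes lie below 0, in the second all lie above 0, and in the third they spread from -0.88 for GRE2 to 1.92 for FMP16.

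A straight line over the 13 deeper starved libraries caught little of this course. With a call needing a limma adjusted p below 0.05 and a line that gains or loses 1 (log2) or more between 15 and 225 min, 6 of 30 genes rose and 0 fell, where 3.10% of 5282 genes rose, and the median fitted change was 1.43. FMP16 gained 3.68 ± 0.88 (SE, limma adjusted p = 0.0253), DDR2 3.38 ± 0.79 (adjusted p = 0.0237) and MOH1 2.79 ± 0.66 (adjusted p = 0.0243). GAD1 gained 2.58 ± 0.75 (limma adjusted p = 0.0478), OM45 2.22 ± 0.61 (adjusted p = 0.0387) and PIL1 1.22 ± 0.35 (adjusted p = 0.0478). The count was 0 without the 15, 30, 165, 180 or 225 min library, where 0.573% to 0.952% of all genes rose. It was 3 without that of 150 min (2.14% of all genes) and 10 without that of 45, 60, 105 or 135 min (3.29% to 4.09%). Adding the libraries labelled 195 and 210 min left 3 calls, and so did modelling the autocorrelation between successive libraries and centring the libraries on their median gene. GAD1, OM45 and PIL1 lost their call in each of these 3 fits. GRE2 had the lowest slope, -1.09 ± 0.43 (limma adjusted p = 0.140).

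Duplicated genes gave a comparison within enzyme families. For 14 of the stress genes a gene copy outside the group could be set beside them, and 11 of these copies had enough values. PGM2 stood 1.66 (log2) below PGM1 at 0 min and 3.93 above it at 150 min. PGM1, the minor phosphoglucomutase, was at -0.40 in the first hour and at -0.56 late against 0 min. SOL4 went from 4.05 below SOL3 to 1.15 above it at 150 min. GND2 went from 5.76 below GND1, the major 6-phosphogluconate dehydrogenase, to 0.38 below it at 150 min and 1.22 above it at 225 min. GND1 fell over the course, by 1.37 ± 0.25 on the slope (limma adjusted p = 0.00710). TKL1, the major transketolase, fell by 0.60 ± 0.16 from the dip to the third window (limma adjusted p = 0.0112), as did RTN1, by 0.62 ± 0.19 (adjusted p = 0.0240). PGM1, SOL3, TAL1 and MSG5 were called in none of the tests.

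GLK1, DCS1 and STF2, the copies of EMI2, DCS2 and TMA10, fell into the dip by 1.23, 1.14 and 1.41 and rose out of it by 1.59, 1.68 and 2.42, and HOR7, the copy of DDR2, rose out of it by 1.60 ± 0.24 (limma adjusted p = 0.000181). The differences between copies were not tested themselves. Of these copies GLK1, STF2 and HOR7 are themselves known stress genes. Coding sequences of the pairs named, RTN2 and RTN1 aside, were 57.6% to 79.1% identical with no identical run over 24 bases, and how reads that match more than 1 place were handled is not given in the sources used here. No member overlaps another gene of the RefSeq annotation.

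**Figure D3:**
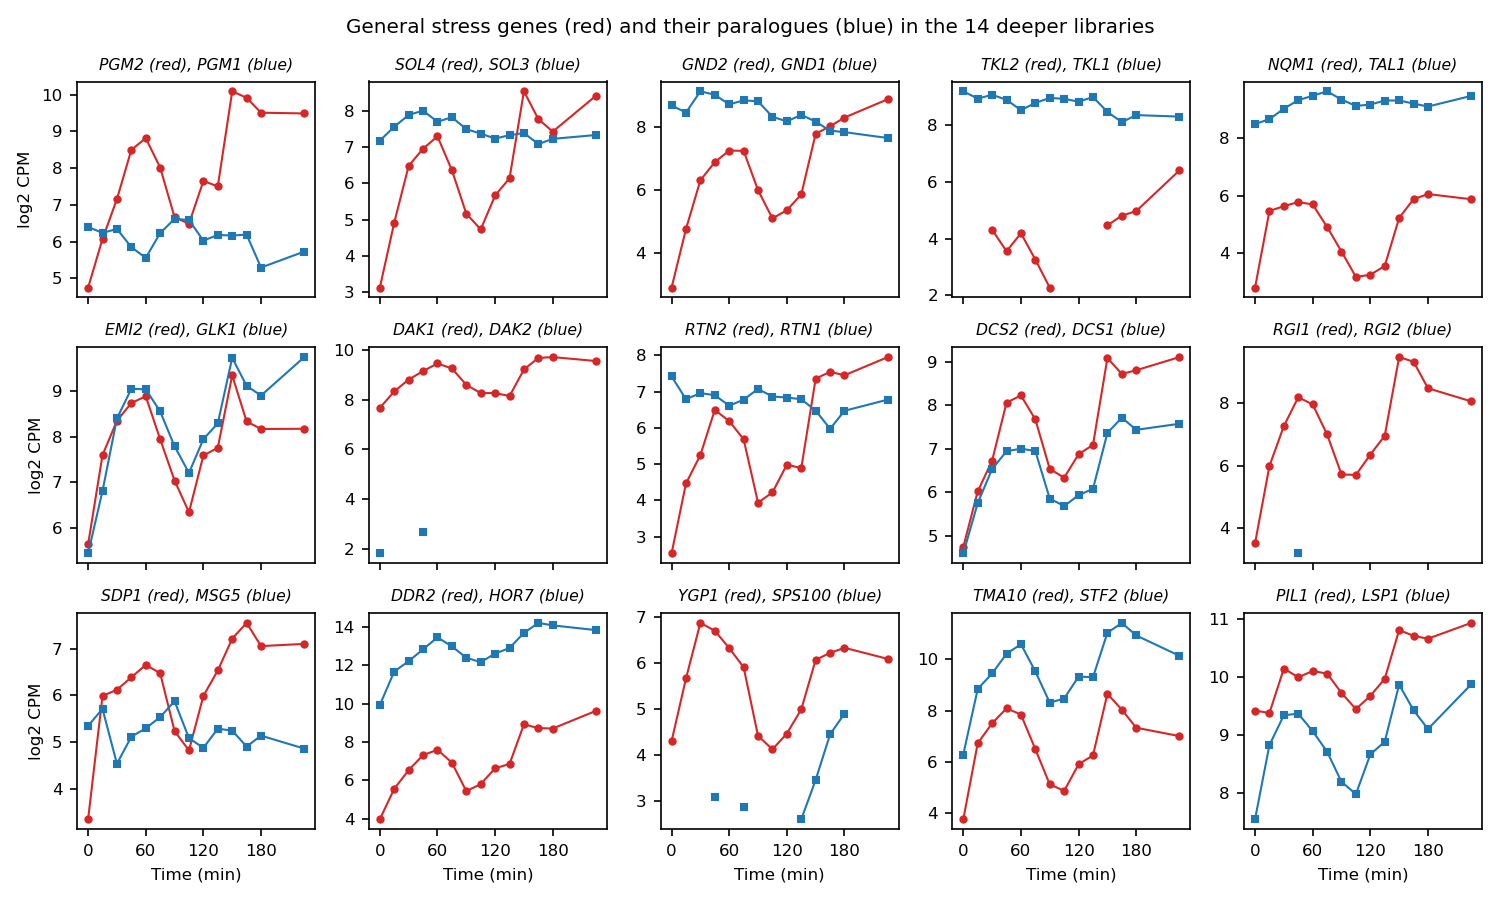
Log2 CPM over time in min of stress genes (red) and their gene copies (blue), 1 panel per pair, points being single libraries. PGM2, SOL4, GND2, RTN2 and SDP1 cross their copies, which do not share the second wave. EMI2 and GLK1, DCS2 and DCS1, and TMA10 and STF2 share the 2 waves.

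Other parts of the stress program ran alongside. Of 40 other stress-induced genes, chaperones and trehalose and glycogen enzymes among them, 37 were tested. Of these 29 fell into the dip (8.84% of all genes), 36 rose out of it (16.2%) and 10 exceeded their first wave (1.25%). The last count was not taken again with 1 library left out, which moved the share of all genes from 0.101% to 6.23%. On the slope HXT5 (5.08 ± 0.73, adjusted p = 0.00526), HSP26 (4.67 ± 0.77, adjusted p = 0.00526), SIP18 (3.86 ± 1.02, adjusted p = 0.0334) and GPH1 (3.21 ± 0.88, adjusted p = 0.0379) gained most, all by limma. Ribosome biogenesis genes ran the other way: of 57 tested, 53 rose while the stress genes dipped (median 1.34), where 7.55% of all genes tested rose, and 57 fell afterwards (median -1.90), where 13.1% of all genes fell. These lists share the libraries with the stress genes, so the opposite courses are a description. Of 31 regulators tested, 10 rose out of the dip and 1 fell, beside 16.2% and 13.1% of all genes. MSN4 rose by 1.68 ± 0.31 (limma adjusted p = 0.000975), GIS1 by 1.09 ± 0.27 (adjusted p = 0.00670) and YAK1, a kinase opposed to protein kinase A, by 1.05 ± 0.24 (adjusted p = 0.00382). RAS1 fell by 1.21 ± 0.32 (limma adjusted p = 0.0104). MSN2 was at -0.34 ± 0.44 (adjusted p = 0.605), and the activity of these proteins is not read by their RNA.

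**Figure D4:**
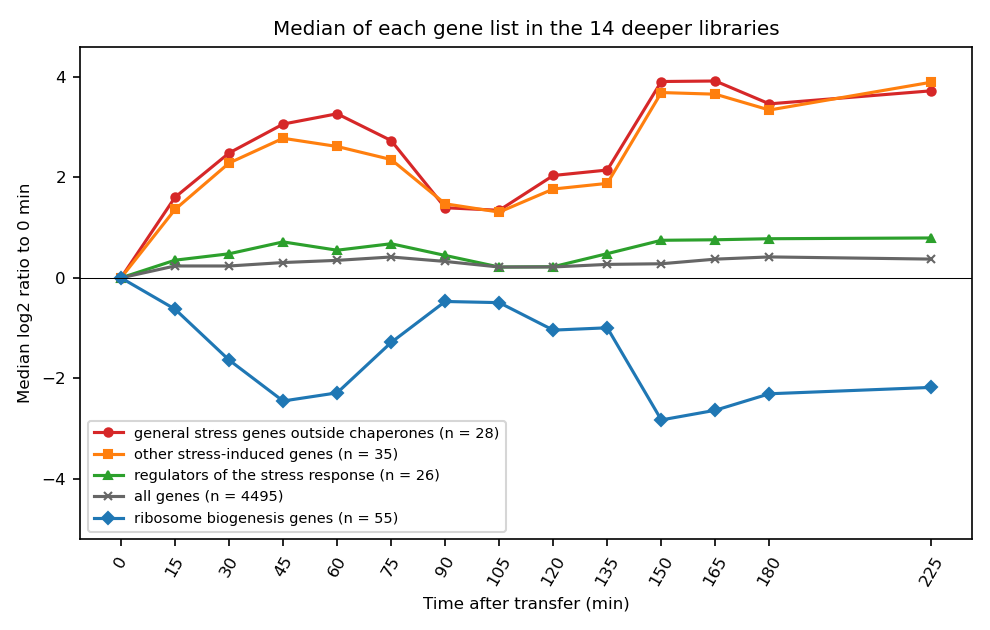
Median log2 ratio to the 0 min library at each time in min over 28 stress genes outside chaperones, 35 other stress-induced genes, 26 regulators, 55 ribosome biogenesis genes and 4495 genes in all, each with a value in the 14 deeper libraries. The stress genes reach 3.27 at 60 min, drop to 1.35 at 105 min and stand at 3.91 at 150 min, where the ribosome biogenesis genes are at -2.83, while the median of all genes stays between 0 and 0.42.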

How the data were processed

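RNA of 16 libraries, 1 per time point, was analysed from 1 deposited table. The aligner was Bowtie, with no version given, and the genome build R64, per the submitters' processing notes; the counting program and annotation are not given in the sources used here. The values that the authors deposited are log2 CPM: raised back, each library sums to about 1000000 over the listed genes. The scaling to the earliest sample that the design text mentions is not present in them, and ratios to 0 min were taken here as differences of log2 values. Genes below the floor of a library carry no value, and nothing was added to the values. Raised back, low values are whole multiples of the floor divided by 10 (within 0.01 reads for 94.6% to 97.5% of low values in the deeper libraries), so the floor was taken as 10 reads; this is an assumption, and depth and read numbers scale with it. Of 6701 entries, 51 without a name and 1 name on 2 entries were dropped.

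Fits used limma 3.58.1 (R 4.3.3), with lmFit and a trended eBayes, over all genes with enough values, with Benjamini-Hochberg adjustment and two-sided tests. The slope needed 8 of 13 values and each window 2 of 3. The residuals of the slope had a lag-1 autocorrelation of 0.38. Ratios to 0 min have no test. The scripts were tested on simulated data. Promoters and coding sequences were read from the RefSeq R64 genome with Python 3.11.15 and Biopython 1.88.

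The stress genes, lists, windows and tests were chosen with earlier results of these data known. Values of every library are written out for genes called by the slope, for the 4 highest and 4 lowest in the first hour among genes with all 14 deeper values, and for genes without a 0 min value. Other lists are named where called, or by the 4 largest fitted changes. The result of 1 gene that this rule names is not reported here. Single genes pointed out by their time of peak, step or course were chosen after their values were seen. No protein sequence was used here.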

Additional observations from a re-analysis of the deposited data

How the results depend on the processing

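The rise out of the dip was called for 28 genes under every alternative run, and the fall into it for 22 to 27. Ratios at least 2-fold over 0 min were held by 26 to 29 genes in the first hour and by 27 to 29 late. The late median was 3.47 with centred libraries. The later wave exceeded the earlier for 1 to 14 genes when 1 library was left out and for 3 with eBayes without a trend. The 1 gene below its earlier wave was lost (0) with centring, without a trend and at a minimum of 1, and leaving out libraries gave 0 to 1. The slope was called for 0 to 10 genes when 1 library was left out, for 3 with all 15 starved libraries, with centring and with the autocorrelation modelled, and for 10 with quantile normalization. Signs of uncalled genes turned when 1 library was left out. For the slope the ranges were -0.089 to 0.44 (EMI2), -0.58 to 0.43 (NQM1), -0.043 to 0.92 (RTC3), -0.13 to 0.65 (TMA10) and -0.70 to 0.21 (YGP1, also 0.06 with the autocorrelation). Between the outer windows they were -0.27 to 0.32 (EMI2), -0.02 to 0.14 (GRE3), -0.016 to 0.51 (NQM1), -0.47 to 0.50 (RTC3) and -0.31 to 0.09 (YGP1). The causes were not tested. No paired analysis was possible because each time point has 1 library and no replicate numbers are shared. TKL2 and MOH1 have no value in some libraries, and MGA1 and RGS2 have none in any. Whether depth accounts for this was not tested. The libraries labelled 195 and 210 min hold abundant genes only.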
